A study of Mus musculus with 16 samples.

Results

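Hspa5, Hsp90b1, Dnajb9, Pdia3, Pdia4, Pdia6, Calr, Canx, Xbp1 and Herpud1, chaperones and stress genes of the endoplasmic reticulum (ER), were followed in mouse T cell acute lymphoblastic leukaemia (T-ALL). They were taken by gene symbol, and all 10 were found among the 12012 genes of the deposited table. The donors' leukaemias were NOTCH-ΔE tumours, which carry an activated Notch receptor, passed to C57BL/6 mice as secondary transplants. The mice then spent 3 weeks on 1 of 4 diets, the control diet with 8 g/kg valine, a valine-free diet (0 g/kg), or the latter with valine added back at 0.4 or 0.8 g/kg. The characteristics of the samples state these amounts by weight of diet, but the protocol for the treatment states the 0.4 and 0.8 doses per litre of drinking water. Leukaemic cells were sorted from spleen by their GFP marker, so all groups share the NOTCH-ΔE transplant, the sort and the strain. For each diet total RNA was sequenced in 2 libraries, labelled T-ALL 2 and T-ALL 3, and so were ribosome-protected fragments (RPF), the pieces of mRNA that a ribosome covers. Whether the numbers 2 and 3 stand for separate tumours or for separate recipients is not given, so every p-value measures only the spread between these samples. Levels are given as FPKM, which scales a gene's reads by its length and by the size of the library. The series' design text names ribosome occupancy as a measure of translational efficiency (TE) under altered valine supply. The questions here are whether the level, the ribosome cover or the TE of the ER genes differed between diets.

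The ER is where secreted and membrane proteins are threaded in, folded, glycosylated and joined by disulfide bonds, and in a T cell these include the T cell receptor and Notch. When unfolded proteins build up there, the membrane sensors IRE1, ATF6 and PERK start the unfolded protein response. Cleaved ATF6 and the XBP1 protein made from IRE1-spliced mRNA switch on chaperone genes. PERK phosphorylates the initiation factor eIF2alpha, which slows most translation while ATF4 is made, and the amino acid sensor GCN2 acts on the same factor. Hspa5 encodes BiP, the main ER chaperone of the HSP70 family, and Hsp90b1 encodes GRP94, the ER chaperone of the HSP90 family. Dnajb9 encodes ERdj4, a J-domain partner of BiP. Pdia3 (ERp57), Pdia4 (ERp72) and Pdia6 (P5) are protein disulfide isomerases, and Calr and Canx are the lectin chaperones calreticulin and calnexin. Herpud1 encodes a membrane protein of ER-associated degradation.

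In build GRCm38.p6 (RefSeq annotation) Hspa5 (ENSMUSG00000026864) and Pdia3 (ENSMUSG00000027248) lie on chromosome 2, at chr2:34772090-34776529 and chr2:121413902-121438687. Canx (ENSMUSG00000020368) and Xbp1 (ENSMUSG00000020484) lie at chr11:50293957-50325673 and chr11:5520641-5525993, and Pdia6 (ENSMUSG00000020571) and Dnajb9 (ENSMUSG00000014905) at chr12:17266589-17284785 and chr12:44205897-44210068. Calr (ENSMUSG00000003814) and Herpud1 (ENSMUSG00000031770) are at chr8:84842088-84846931 and chr8:94386429-94395371. Hsp90b1 (ENSMUSG00000020048) is at chr10:86690841-86705444 and Pdia4 (ENSMUSG00000025823) at chr6:47796141-47813512. The values below are for whole genes, with no split by exon or transcript.

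The promoters are shown because the ATF6 and XBP1 factors act through known sequence elements there, and the genes can be compared by which of them they carry. The bases before each annotated start were read from RefSeq (build GRCm38.p6), which had an entry for all 10 genes, and searched on both strands. The ER stress element ERSE was searched as CCAAT, 9 bases of any kind and CCACG, and ERSE-II as ATTGG, 1 base of any kind and CCACG. Capitals mark matches to either. Hspa5, Hsp90b1, Pdia6 and Herpud1 are printed with all 250 bases before the start, and Calr and Canx with the match and 30 bases on each side. On the minus strand of a gene an ERSE reads as CGTGG, 9 bases and ATTGG.
Hspa5 (chr2:34771840-34772089, plus strand): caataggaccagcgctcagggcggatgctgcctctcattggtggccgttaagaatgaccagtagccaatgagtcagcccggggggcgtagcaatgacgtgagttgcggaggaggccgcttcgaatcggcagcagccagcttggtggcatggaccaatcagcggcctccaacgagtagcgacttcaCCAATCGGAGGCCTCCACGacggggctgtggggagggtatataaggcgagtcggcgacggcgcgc
Hsp90b1 (chr10:86705445-86705694, minus strand): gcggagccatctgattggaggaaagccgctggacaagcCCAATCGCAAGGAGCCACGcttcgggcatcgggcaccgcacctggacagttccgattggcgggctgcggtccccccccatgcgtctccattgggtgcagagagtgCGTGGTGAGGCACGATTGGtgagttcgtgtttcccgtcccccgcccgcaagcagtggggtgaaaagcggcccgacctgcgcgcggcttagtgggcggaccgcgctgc
Pdia6 (chr12:17266339-17266588, plus strand): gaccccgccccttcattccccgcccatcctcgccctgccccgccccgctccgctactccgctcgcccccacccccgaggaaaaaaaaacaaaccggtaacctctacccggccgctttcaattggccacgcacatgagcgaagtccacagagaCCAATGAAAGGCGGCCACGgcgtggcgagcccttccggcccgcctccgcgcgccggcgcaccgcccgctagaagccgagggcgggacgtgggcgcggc
Herpud1 (chr8:94386179-94386428, plus strand): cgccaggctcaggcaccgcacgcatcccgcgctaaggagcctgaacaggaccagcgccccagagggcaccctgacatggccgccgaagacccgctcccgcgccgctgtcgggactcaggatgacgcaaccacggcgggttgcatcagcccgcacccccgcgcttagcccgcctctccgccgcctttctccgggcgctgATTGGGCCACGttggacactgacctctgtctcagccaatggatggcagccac
Calr (chr8:84847045-84847123, minus strand): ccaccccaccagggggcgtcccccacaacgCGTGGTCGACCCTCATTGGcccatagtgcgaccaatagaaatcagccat
Canx (chr11:50325770-50325848, minus strand): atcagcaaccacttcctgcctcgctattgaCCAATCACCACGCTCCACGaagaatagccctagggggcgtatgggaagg

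ERSE was found before 5 of the 10 genes, Hspa5, Hsp90b1, Pdia6, Calr and Canx, and before 0.113% of all 32851 promoters of the same length. It lay 65 to 47 bases before the start in Hspa5, 98 to 80 in Pdia6, 145 to 127 in Canx and 162 to 144 in Calr. Hsp90b1 held a pair, at 212 to 194 and at 107 to 89 bases before the start. ERSE-II was found only before Herpud1 among the 10, at 52 to 42 bases, and before 0.0304% of all promoters. The ATF4 element core, searched as TGATG, 1 base and AA, was also found only before Herpud1 among the 10, at 112 to 105 bases, against 3.45% of all promoters. TGACGTGG, the core of the XBP1 element UPRE, was before none of the 10 and before 0.563% of all promoters. These matches describe letters in this window and were not tested for factor binding.

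In the total RNA libraries 364685 to 1269364 reads could be recovered from the FPKM values, and in the RPF libraries only 41848 to 205545. The 10 genes took 1209 to 3562 reads of a total RNA library and 104 to 841 of an RPF library. In total RNA the T cell genes Cd3e (396 to 830 FPKM), Lck (396 to 534) and Thy1 (281 to 346) matched the labelled type. Notch1 was at 235 to 413 FPKM, but reads of the NOTCH-ΔE receptor, if any, cannot be told apart there. Markers of B cells and plasma cells, which carry much ER, summed to 0.880 to 2.03 reads per 10000 at 0 g/kg and 0.843 to 1.11 at 8 g/kg, with 6 of 13 listed genes in the table, Cd79b at 0 reads throughout, and Igkc and Ighm not analysed here. Neutrophil markers (11 of 12 listed in the table) summed to 2.08 to 4.65 reads per 10000 at 0 g/kg and 0.165 at 8 g/kg, and erythroid markers (10 of 11) to 1.12 to 1.87 and 3.90 to 5.71. T cell markers (14 of 16) summed to 63.0 to 66.4 and 62.2 to 79.1. The part of these differences in the results below was not tested. In such bulk samples fewer cells of a type and less RNA per cell cannot be told apart.

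Levels per gene length placed the ER genes in a high, a middle and a low class. In total RNA the order of mean FPKM over all 8 libraries was Calr (274 ± 51.6, SD, n = 8), Pdia3 (254 ± 32.9), Hsp90b1 (174 ± 33.1), Hspa5 (153 ± 21.1) and Canx (145 ± 7.58), each above 95% of the genes tested. Pdia4 (74.2 ± 13.5) and Pdia6 (71.3 ± 14.5) followed. Herpud1 (16.9 ± 7.45), Xbp1 (10.5 ± 3.07) and Dnajb9 (7.22 ± 3.34) were the lowest, and Dnajb9 lay above 34.9% of the genes tested. The ranges of neighbours in this order overlapped over the libraries, except at a pair of steps. Canx (136 to 157 FPKM) lay above Pdia4 (51.3 to 97.5), and Pdia6 (46.6 to 86.4) above Herpud1 (6.80 to 32.1). Canx varied least, with a coefficient of variation of 5.23% over the 8 libraries. In RPF, Hspa5 came first (235 ± 51.2 FPKM, SD, n = 8), before Calr (220 ± 43.5), Hsp90b1 (146 ± 62.9), Pdia3 (131 ± 41.3) and Canx (106 ± 36.6).

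**Figure D1:**
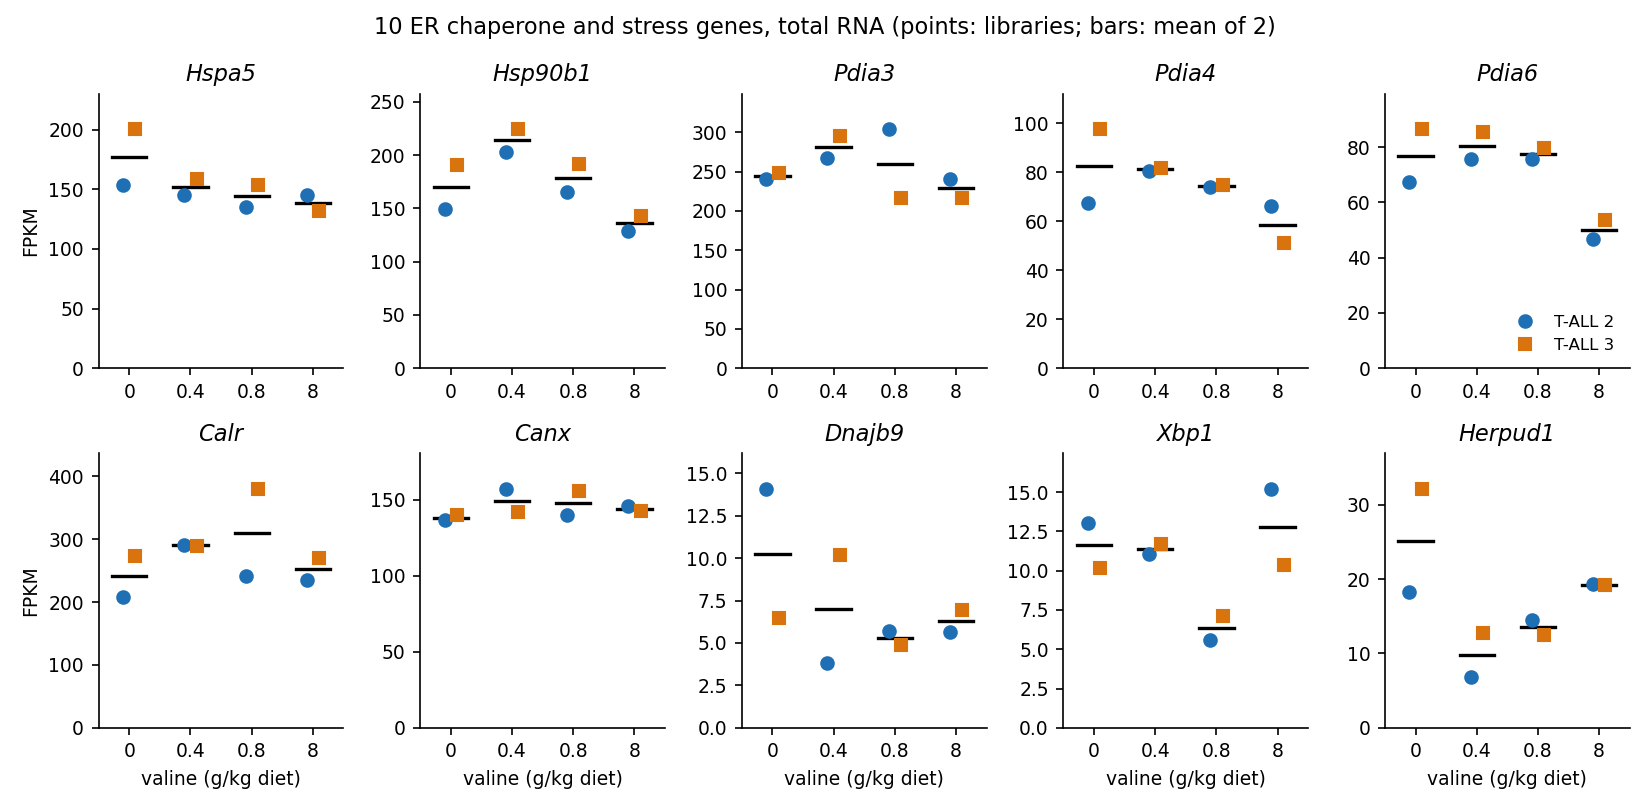
Total RNA level (FPKM, linear axis from 0) of each of the 10 genes by dietary valine (g/kg). Each point is 1 library (circle T-ALL 2, square T-ALL 3) and each bar the mean of the 2 libraries of a diet. All 6 low-valine libraries lie above both 8 g/kg libraries for Hsp90b1, Pdia4 and Pdia6, and Canx stays between 136 and 157 FPKM.

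Pdia6, Hsp90b1 and Pdia4 had more total RNA in every low-valine library than in either control library, but no gene passed the test across the table. Pdia6 was at 46.6 and 53.6 FPKM at 8 g/kg (T-ALL 2 and T-ALL 3, here and below in that order). It was at 67.4 and 86.4 FPKM at 0 g/kg, 75.6 and 85.5 at 0.4 g/kg, and 75.6 and 79.7 at 0.8 g/kg. The groups did not overlap, and the log2 differences from 8 g/kg were 0.61 ± 0.18, 0.68 ± 0.18 and 0.63 ± 0.18 (± SE from limma) at 0, 0.4 and 0.8 g/kg. Their unadjusted p-values were 0.00961, 0.00517 and 0.00785 by limma, a linear model fitted to all genes at once. Their adjusted p-values were 0.564, 1.0 and 1.0 after Benjamini-Hochberg adjustment over 10054 genes, and 0.05 was the threshold throughout. The 3 comparisons share their 2 control libraries.

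Hsp90b1 was highest at 0.4 g/kg. The controls were at 128 and 143 FPKM, against 149 and 191 at 0 g/kg, 203 and 224 at 0.4 g/kg, and 166 and 192 at 0.8 g/kg. All low-valine libraries were above both controls, with log2 differences of 0.31 ± 0.16, 0.65 ± 0.16 and 0.39 ± 0.16 (± SE), with unadjusted p = 0.0907, 0.0036 and 0.0421 (adjusted p = 0.827, 1.0 and 1.0 by limma). Pdia4 had 66.0 and 51.3 FPKM in the controls. Its low-valine values were 67.6 and 97.5 at 0 g/kg, 80.5 and 81.8 at 0.4 g/kg, and 74.0 and 74.8 at 0.8 g/kg. The lowest of these, from T-ALL 2 at 0 g/kg, was barely above the control of the same number. The log2 differences of Pdia4 were 0.48 ± 0.21, 0.48 ± 0.21 and 0.35 ± 0.21, none past the test.

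These 3 of the 10 genes had all 6 low-valine libraries above both controls, which held for 3.1% of the 10054 genes tested. A comparison of the 3 low-valine diets together with 8 g/kg, chosen after seeing the data, gave log2 differences of 0.64 ± 0.15 for Pdia6, 0.45 ± 0.13 for Hsp90b1 and 0.44 ± 0.17 for Pdia4. That is 1.56-fold for Pdia6 on the scale of log2(FPKM + 0.5), with unadjusted p = 0.00228 and adjusted p = 0.871 by limma. The unadjusted p was 0.00882 for Hsp90b1 and 0.034 for Pdia4 (adjusted p = 1.0 for each by limma). Of all genes 1.9% had a higher level with an unadjusted p under 0.05 in this comparison.

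Hspa5, a gene often read as a sign of ER stress, lay above both controls at 0 g/kg only. Its controls were at 146 and 132 FPKM, and its libraries at 154 and 200 at 0 g/kg, 145 and 159 at 0.4 g/kg, and 135 and 153 at 0.8 g/kg. At 0 g/kg the log2 difference was 0.34 ± 0.17 (± SE, unadjusted p = 0.0726, adjusted p = 0.81 by limma). The T-ALL 3 library at 0 g/kg held the highest total RNA value of Hspa5, Pdia4, Pdia6 and Herpud1 alike. That library also had 18 reads of Jchain and 4 of Mzb1, genes of antibody-secreting cells, where the other 7 libraries had 0 to 2 of each, and 31 of Cd74 against 6 to 20. Sdc1, another gene of antibody-secreting cells, had more reads and was present in every total RNA library, at 34 to 105 reads and 25.9 to 42.4 FPKM. The part of all these genes in the result was not tested. Without this library the log2 difference at 0 g/kg was 0.15 for Hspa5, 0.21 for Pdia4, 0.43 for Pdia6 and -0.08 for Herpud1.

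Calr, Canx and Pdia3, which form the calreticulin and calnexin cycle with its isomerase, had no difference in total RNA that reached an unadjusted p of 0.05 at any dose. Canx was at 136 and 140 FPKM at 0 g/kg, 157 and 142 at 0.4 g/kg, 140 and 156 at 0.8 g/kg and 146 and 142 at 8 g/kg. Its 0 g/kg pair lay just below both controls. Calr ran from 209 to 380 FPKM over the 8 libraries, with the widest pair at 0.8 g/kg (241 and 380) and controls at 236 and 270. Pdia3 ran from 216 to 304 FPKM, again with its widest pair at 0.8 g/kg (304 and 216), and its controls were at 240 and 217. The smallest unadjusted p of these 3 genes in the comparisons of single diets was 0.118, for Pdia3 at 0.4 g/kg.

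Herpud1, Xbp1 and Dnajb9, the 3 low-level genes, varied more over the 8 total RNA libraries, with coefficients of variation of 29.2 to 46.3% against 5.23 to 20.4% for the other 7. They had 3 to 43 reads in a library, and the other 7 had 57 to 761. The part of low read numbers in this spread was not tested. Herpud1 was at 19.3 and 19.2 FPKM in the controls, 18.2 and 32.1 at 0 g/kg, 6.80 and 12.8 at 0.4 g/kg, and 14.6 and 12.5 at 0.8 g/kg. Both partial doses lay below both controls, and the 0 g/kg pair lay on either side of them. The log2 difference was -1.01 ± 0.37 at 0.4 g/kg (unadjusted p = 0.0238, adjusted p = 1.0 by limma), on 13 and 17 reads, and 0.32 ± 0.37 at 0 g/kg. Xbp1 was at 15.2 and 10.3 FPKM in the controls, 13.1 and 10.2 at 0 g/kg, 11 and 11.7 at 0.4 g/kg, and 5.56 and 7.14 at 0.8 g/kg. Only the 0.8 g/kg pair stood apart, below all 6 other libraries, with a log2 difference of -0.94 ± 0.32 (unadjusted p = 0.0169, adjusted p = 1.0 by limma) on 10 and 5 reads. Splicing of the Xbp1 mRNA is not seen in a table of whole genes and was not analysed here. Dnajb9 had 3 to 17 reads in a library, with 14.1 and 6.46 FPKM at 0 g/kg against 5.63 and 6.94 at 8 g/kg, and its pairs overlapped.

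In total RNA the 0 g/kg pair lay above both controls for 5 of the 10 genes (Hspa5, Hsp90b1, Pdia3, Pdia4 and Pdia6), as it did for 16.1% of all genes, and below both for Canx alone (20.3% of all genes). At 0.4 g/kg it was 5 genes above (18.4%), with Calr in place of Hspa5, and Herpud1 below (19.0%). At 0.8 g/kg it was Hsp90b1, Pdia4 and Pdia6 above (13.8%) and Xbp1 and Herpud1 below (17.8%). The median log2 difference of the 10 genes was 0.32, 0.17 and 0.11 at the 3 doses, and that of all genes -0.04, -0.01 and -0.03. Together the 10 genes took 0.279% of the reads in each control library of total RNA. They took 0.327 ± 0.0524%, 0.339 ± 0.0139% and 0.322 ± 0.0132% (SD, n = 2) on 0, 0.4 and 0.8 g/kg. In RPF their share was 0.249 to 0.326% on 8 g/kg. It was 0.306 to 0.356%, 0.296 to 0.370% and 0.333 to 0.409% on 0, 0.4 and 0.8 g/kg.

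No gene of the table passed an adjusted p of 0.05 by limma in total RNA at 0, 0.4 or 0.8 g/kg against 8 g/kg (0.0% of 10054 genes called in each), nor in the test for any difference among the 4 diets. On the recovered reads limma voom called 3, 0 and 0 genes at these doses, and none of the 10. At an unadjusted p under 0.05, 258 genes (2.57%) were higher and 404 (4.02%) lower at 0 g/kg, and of the 10 genes only Pdia6 was among them. At 0.4 g/kg 160 genes (1.59%) were higher, Hsp90b1 and Pdia6 included, and 151 (1.5%) lower, Herpud1 included. At 0.8 g/kg 132 genes (1.31%) were higher, again with Hsp90b1 and Pdia6, and 215 (2.14%) lower, with Xbp1. In the test over all 4 diets Hsp90b1, Pdia6 and Herpud1 had an unadjusted p under 0.05, which 4.76% of all genes had.

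**Figure D2:**
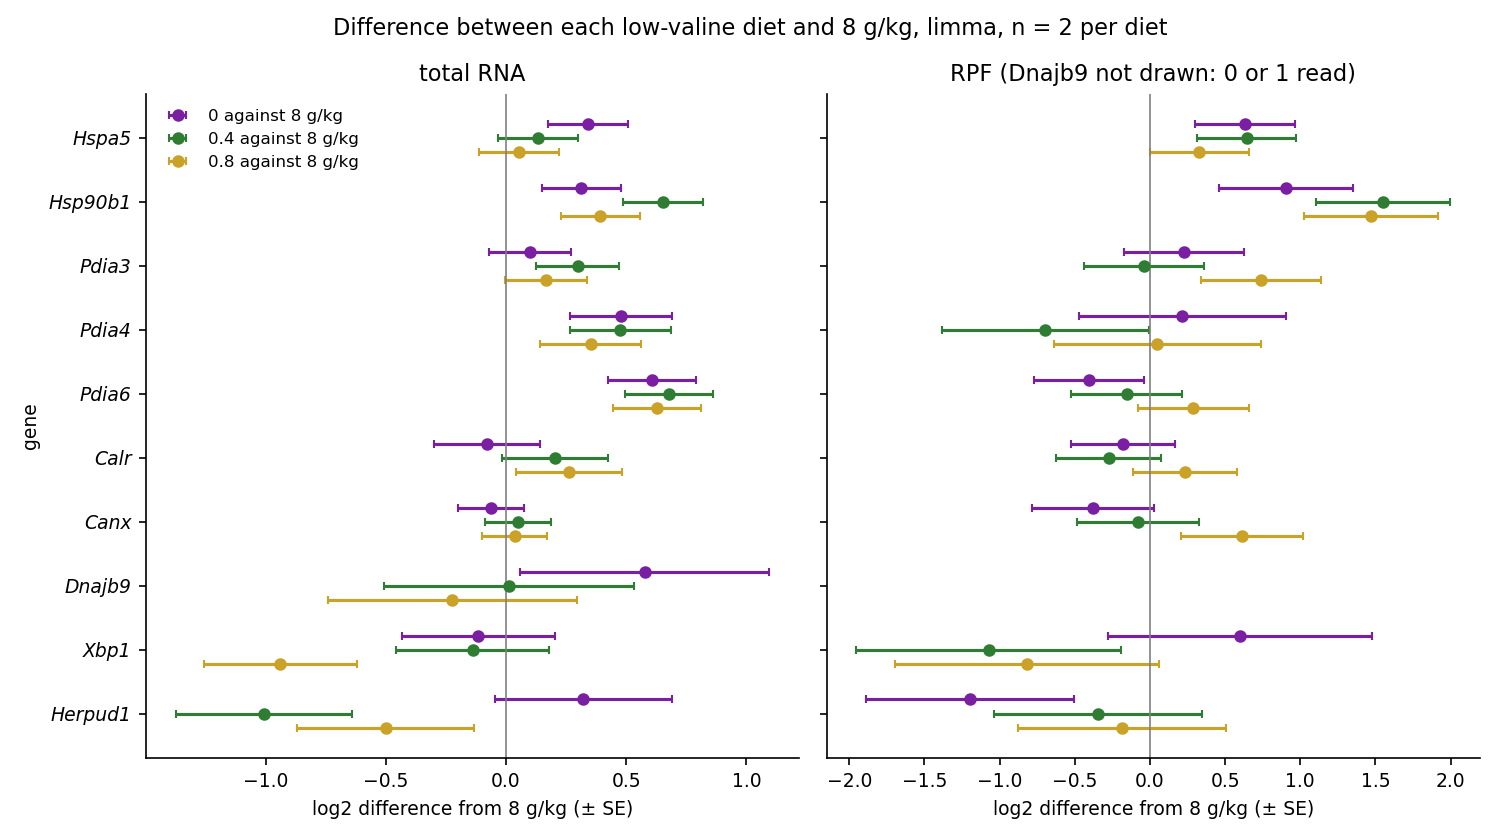
Log2 difference of each gene between a low-valine diet and 8 g/kg (points, ± SE from limma, 2 libraries per diet) in total RNA and in RPF, with no Dnajb9 in RPF because it had at most 1 read. Pdia6 lies at 0.61, 0.68 and 0.63 in total RNA, Hsp90b1 at 0.91, 1.55 and 1.47 in RPF, and the 3 comparisons share their 2 control libraries.

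In RPF, Hsp90b1 was the only 1 of the 10 genes with all 6 low-valine libraries above both controls, a pattern held by 4.45% of the 9718 genes tested. Its RPF level was 45.8 and 95.8 FPKM at 8 g/kg, 141 and 110 at 0 g/kg, 246 and 155 at 0.4 g/kg, and 204 and 167 at 0.8 g/kg. The log2 differences were 0.91 ± 0.44, 1.55 ± 0.44 and 1.47 ± 0.44 (± SE), with unadjusted p = 0.078, 0.0089 and 0.0115 and adjusted p = 0.785, 0.644 and 0.843 by limma. The low control rested on 7 reads in the shallowest RPF library of the series and the other control on 25 reads. Without the 7-read library the differences were 0.38, 1.02 and 0.94, and without the 25-read library 1.43, 2.08 and 2.0. The median of all genes was itself higher than at 8 g/kg by 0.12, 0.08 and 0.30 on the log2 scale at these doses. With voom, whose TMM scaling put that median at 0.03, 0.00 and -0.02, Hsp90b1 stood at 0.86, 1.57 and 1.40. In the test over all 4 diets 4.97% of genes had an unadjusted p under 0.05 in RPF, and Hsp90b1 was the 1 of the 10.

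Hspa5 had RPF levels of 138 and 218 FPKM in the controls, on 24 and 65 reads. It was at 305 and 238 FPKM at 0 g/kg, 275 and 268 at 0.4 g/kg, and 234 and 204 at 0.8 g/kg. The 0 and 0.4 g/kg pairs lay above both controls and the 0.8 g/kg pair overlapped them, with log2 differences of 0.63, 0.64 and 0.33 (SE 0.33 each, unadjusted p = 0.0939, 0.0899 and 0.351 by limma). For Pdia6 the order of the diets in RPF was not that in total RNA. Its RPF level was 87.2 and 102 FPKM in the controls, 76.6 and 66.1 at 0 g/kg, 103 and 69.6 at 0.4 g/kg, and 98.6 and 135 at 0.8 g/kg. Here the 0 g/kg pair was below both controls (log2 difference -0.41 ± 0.37, unadjusted p = 0.304, adjusted p = 0.818 by limma), on 9 to 45 reads per library.

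**Figure D3:**
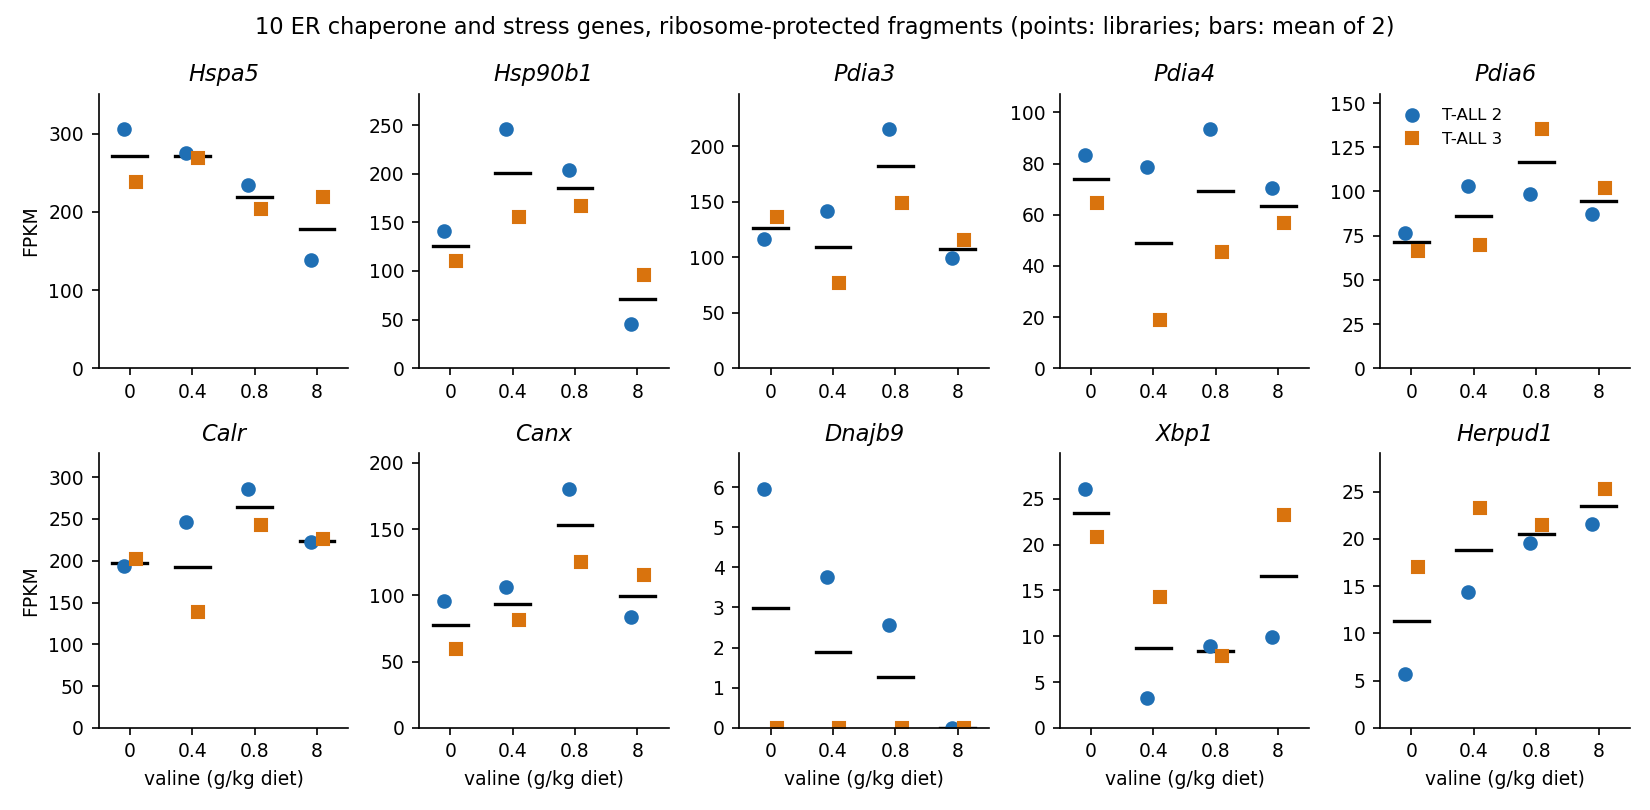
RPF level (FPKM, linear axis from 0) of each of the 10 genes by dietary valine (g/kg), with 1 point per library (circle T-ALL 2, square T-ALL 3) and bars at the mean of 2. Hsp90b1 has both 8 g/kg libraries (45.8 and 95.8 FPKM) below all others, and Dnajb9 is at 0 in 5 of 8 libraries.

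Among the other 7 genes, Canx and Pdia3 had their highest means at 0.8 g/kg, with 180 and 126 FPKM for Canx against controls at 83.7 and 115, and 215 and 149 for Pdia3 against 98.9 and 116. Calr was at 286 and 242 FPKM there against 222 and 226. In each of these 3 the 0.8 g/kg pair lay above both controls, a pattern held by 21.5% of all genes in that comparison. Pdia4 ran from 18.9 to 93.4 FPKM, and its lowest library held 3 reads. Herpud1 had 5.69 and 17 FPKM at 0 g/kg, below its controls at 21.6 and 25.3, on 1 to 8 reads per library. Xbp1 had 1 to 5 reads and Dnajb9 0 or 1 read in an RPF library, too few to show a difference between diets.

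In RPF the 0 g/kg pair lay above both controls for Hspa5, Hsp90b1 and Pdia3 (16.7% of all genes) and below both for Pdia6, Calr and Herpud1 (11.7%). At 0.4 g/kg Hspa5 and Hsp90b1 lay above (15.9%), and at 0.8 g/kg Xbp1 and Herpud1 lay below (9.82%). The nearest libraries were at 8.96 against 9.90 FPKM for Xbp1, on 4 reads and 1 read. For Herpud1 they were at 21.51 against 21.60 FPKM, on 5 and 2 reads, too few to show a difference. The median log2 difference of the 10 genes, Xbp1 and Dnajb9 with their few reads included, was 0.22, -0.12 and 0.31 at the 3 doses. That of all genes was 0.12, 0.08 and 0.30. No gene passed an adjusted p of 0.05 by limma in RPF at any dose (0.0% of 9718 genes in each). At an unadjusted p under 0.05, 4.95% of genes were higher and 2.22% lower at 0 g/kg, none of the 10 among them. The shares were 4.18% and 2.49% at 0.4 g/kg, and 4.72% and 0.854% at 0.8 g/kg, with Hsp90b1 on the higher side in both. On the recovered reads limma voom called 6, 0 and 0 genes at these doses, and none of the 10. Neutrophil markers summed to 3.16 to 27.9 RPF reads per 10000 at 0 g/kg and 0.239 to 0.420 at 8 g/kg. B cell and plasma cell markers summed to 2.24 to 2.53 and 1.40 to 1.43, and erythroid markers to 1.24 to 4.04 and 5.50 to 19.3. The part of these markers in the RPF values was not tested.

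TE was taken as the log2 ratio of RPF to total RNA in libraries of the same diet and T-ALL number. No gene differed in TE between a low-valine diet and 8 g/kg at an adjusted p of 0.05 (0.0% of 9361 genes at each dose, 0 by limma voom). At 0 g/kg 453 genes (4.84%) were higher and 163 (1.74%) lower at an unadjusted p under 0.05, and of the 10 only Herpud1 was among them, on the lower side. None of the 10 was among the 4.21% higher and 2.47% lower at 0.4 g/kg, or the 5.15% and 1.08% at 0.8 g/kg. In the test over all 4 diets 5.58% of genes had an unadjusted p under 0.05, Herpud1 included. Its TE, set against the median gene of the same pair, was -1.29 and -0.63 at 0 g/kg, 1.31 and 1.38 at 0.4 g/kg, 0.57 and 0.91 at 0.8 g/kg and 0.72 and 0.81 at 8 g/kg. The 0 g/kg pair was the lowest, by a log2 TE difference of -1.52 ± 0.52 from 8 g/kg (± SE, unadjusted p = 0.0233, adjusted p = 0.612 by limma), on 1 and 3 RPF reads. Pdia6 had its 2 highest TE values in the control pairs, 1.46 and 1.35 above the median gene. Its 6 low-valine pairs lay between -0.12 and 0.91, a pattern of all 6 below both controls that 2.97% of genes shared. Total RNA, by which TE divides, was lowest for Pdia6 in the same controls, so the TE pattern is not independent of that result. The control pairs rested on 9 and 18 RPF reads. At 0 g/kg the log2 TE difference of Pdia6 from 8 g/kg was -1.01 ± 0.52 (unadjusted p = 0.0929, adjusted p = 0.816 by limma). There the log2 difference was 0.61 in total RNA and -0.41 in RPF.

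Averaged over all diets, log2 TE ran from -0.66 for Pdia3 to 0.93 for Hspa5, with Dnajb9 left aside for its few reads. No rule for counting reads over coding and untranslated bases is given, so these values compare ratios of reads between genes. Hspa5 was above the median gene in 8 of 8 pairs, by 0.48 to 1.30, with a mean log2 TE of 0.93 ± 0.18 (± SE, adjusted p = 0.0256 by limma). It was the only 1 of the 10 past the test, which 1041 genes (11.1%) passed, 704 (7.52%) on the higher side and 337 (3.6%) on the lower. The call held without the T-ALL 3 pair at 0 g/kg (adjusted p = 0.0477 by limma) and was lost without any 1 of the other 7 pairs (adjusted p = 0.0533 to 0.0882), with means of 0.83 to 1.03. By limma voom on the reads its mean log2 TE was 0.73. Pdia6 was above the median gene in 7 of 8 pairs, with a mean of 0.70 ± 0.18 that just missed the threshold (adjusted p = 0.05002 by limma). With a pseudocount of 0.1 it passed (adjusted p = 0.0461), as it did with voom (0.53, adjusted p = 0.0322). Pdia3 was below the median gene in 8 of 8 pairs, by 0.34 to 1.40, with a mean of -0.66 ± 0.28 (adjusted p = 0.165 by limma), and by limma voom it was called at -0.84 (adjusted p = 0.000388). Voom fitted the RPF and total RNA libraries unpaired and called 2566 genes for mean TE, against 1041 in the main fit.

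The TE of Calr, Canx, Hsp90b1 and Pdia4 was near that of the median gene. Mean log2 TE was 0.01 ± 0.23 for Calr, -0.18 ± 0.24 for Canx, -0.05 ± 0.24 for Hsp90b1 and 0.02 ± 0.29 for Pdia4, each with pairs on both sides of the median gene. Xbp1 had 0.58 ± 0.30 and Herpud1 0.47 ± 0.18, on few RPF reads, and Dnajb9 -2.34 ± 0.66 on 0 or 1 read. None of these 7 passed the test (adjusted p = 0.0657 to 0.979 by limma).

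**Figure D4:**
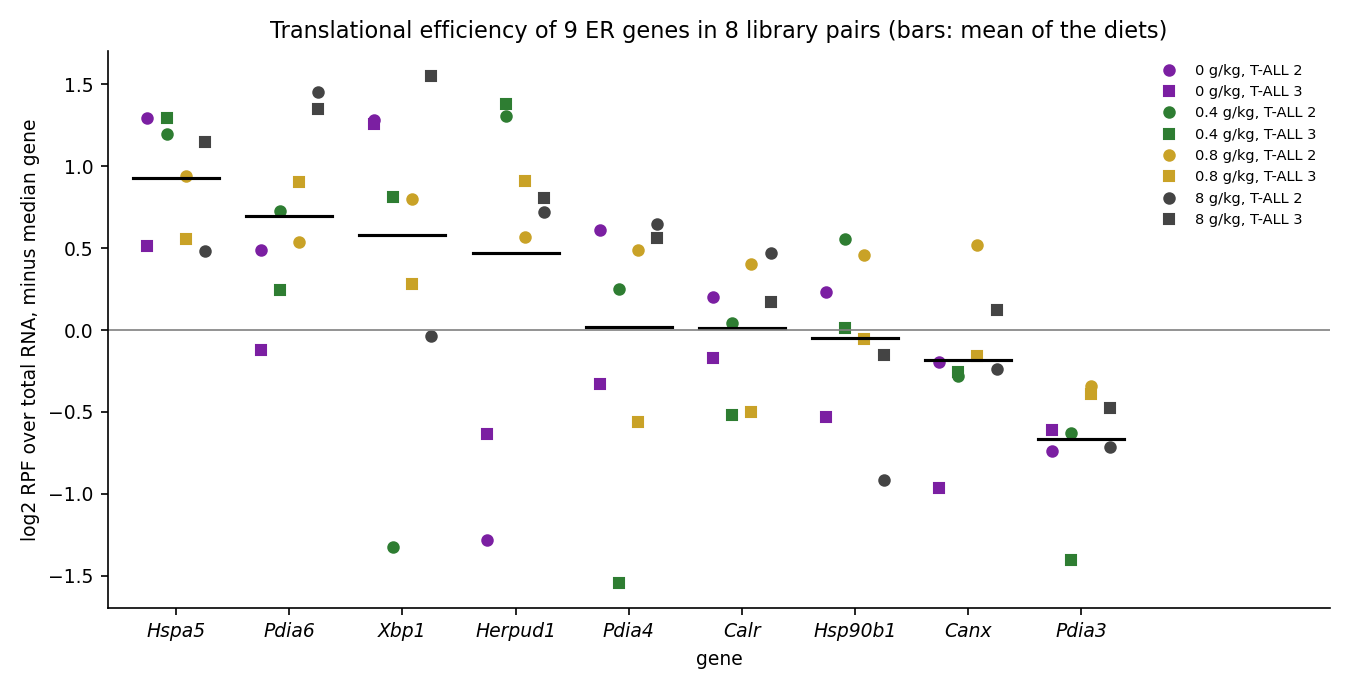
Log2 RPF over total RNA of 9 genes minus that of the median gene, for the 8 library pairs (colour diet, circle T-ALL 2, square T-ALL 3), with the mean over diets as a bar and Dnajb9 left out because it had at most 1 RPF read. Hspa5 lies above 0 in 8 of 8 pairs, Pdia3 below 0 in 8 of 8, and Pdia6 is highest in its 2 control pairs.

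Other genes of ER folding lay on both sides of the controls in total RNA. Of 29 such genes tested at 0 against 8 g/kg, 17 were higher and 12 lower with a median log2 difference of 0.03, and none passed the adjusted test. Of all genes 45.9% were higher in this comparison. Creld2 and Sdf2l1, the 2 genes of this list with the smallest p-values, had 46.0 ± 7.42 against 31.1 ± 5.01 FPKM and 49.7 ± 2.62 against 36.7 ± 10.6 (0 against 8 g/kg, SD, n = 2). Hyou1, Manf and Dnajb11 of the same list had log2 differences of 0.19, 0.09 and -0.23. The abundant folding enzymes Ppib, a prolyl isomerase, and P4hb, a disulfide isomerase, had 167 ± 4.72 against 195 ± 25.8 and 124 ± 15.0 against 140 ± 6.89 FPKM. Creld2 had an unadjusted p of 0.0299 (adjusted p = 0.694 by limma), and the other 3 genes did not reach 0.05.

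ER-associated degradation, the route by which misfolded ER proteins reach the proteasome, had 11 of 25 genes higher and 14 lower, with a median of -0.06. Its members Ubxn4 (17.4 ± 4.66 against 29.4 ± 2.12 FPKM) and Vimp (8.87 ± 3.96 against 15.7 ± 0.659) had the smallest p-values, 0.0197 and 0.0487 before adjustment and 0.65 and 0.748 after it. Vcp, the extracting ATPase, had 207 ± 31.8 against 238 ± 19.3 FPKM and Aup1 53.6 ± 6.39 against 48.0 ± 12.7. Translocation into the ER had 11 of 29 genes higher and 18 lower, with a median of -0.11. There Srpr, a receptor subunit for the signal recognition particle, had 24.6 ± 0.507 against 35.8 ± 3.51 FPKM (unadjusted p = 0.0447, adjusted p = 0.734 by limma), and Ssr4 35.9 ± 4.92 against 48.4 ± 9.17. Sec61b, of the translocation channel, had 176 ± 17.4 against 195 ± 1.77 FPKM and Srp54a 162 ± 5.29 against 152 ± 20.7. None of the genes in these lists passed the adjusted test.

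Among the sensors and their processing enzymes 6 of 11 genes were higher at 0 g/kg and 5 lower, with a median of 0.01. Atf6, the sensor that becomes a transcription factor, had 8.83 ± 1.67 against 4.21 ± 1.90 FPKM, a log2 difference of 1.04 ± 0.42 (unadjusted p = 0.0369, adjusted p = 0.702 by limma). Traf2, an adaptor of IRE1, had 10.8 ± 2.81 against 7.54 ± 1.35 FPKM. Rtcb, the ligase that joins spliced Xbp1, had 91.0 ± 7.0 against 103 ± 2.12, and Eif2s1, the target of PERK, 54.3 ± 4.69 against 51.1 ± 9.46.

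The PERK and ATF4 branch had the largest median of the 6 lists. Of 18 genes tested at 0 against 8 g/kg in total RNA 16 were higher and 2 lower, with a median log2 difference of 0.78, and 8 had an unadjusted p under 0.05 on the higher side, as 2.57% of all genes had. Asns, asparagine synthetase, had 53.0 ± 4.53 against 2.70 ± 1.09 FPKM, and Ppp1r15a, a subunit of the eIF2alpha phosphatase, 69.5 ± 7.31 against 15.0 ± 6.92. Their log2 differences were 4.10 ± 0.68 and 2.24 ± 0.37, with an adjusted p of 0.202 for each by limma. Shmt2, a serine hydroxymethyltransferase, had 208 ± 17.1 against 124 ± 11 FPKM and Phgdh, of serine synthesis, 384 ± 38.6 against 335 ± 7.27. The medians were 0.42 and 0.29 at 0.4 and 0.8 g/kg. In RPF at 0 g/kg 18 of 19 genes of the branch were higher, with a median of 1.36, where 54.6% of all genes were higher with a median of 0.12. None of the 19 passed the adjusted test. The list was chosen with earlier results of these data known, so its counts only describe these libraries. The part of PERK, or of GCN2, which acts on the same factor, was not tested.

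Chaperones of the cytosol and mitochondria had 15 of 26 genes higher and 11 lower, with a median of 0.06, and none passed the adjusted test. Hspa1a, the inducible cytosolic HSP70, was at 177 ± 52.7 FPKM at 0 g/kg and 8.08 ± 5.25 at 8 g/kg (unadjusted p = 0.000145, adjusted p = 0.174 by limma). Its near-identical copy Hspa1b was listed at 0 in both controls and at 14.3 and 14.6 at 0 g/kg, and reads of the pair may not be assigned uniquely. The constitutive Hsp90ab1 and Hspa8 had 1929 ± 317 against 2218 ± 246 and 1235 ± 124 against 1104 ± 58.7 FPKM. On the log2 scale the difference was 4.49 ± 0.70 for Hspa1a and, as above, 0.34 ± 0.17 for Hspa5, the ER member of the same family.

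**Figure D5:**
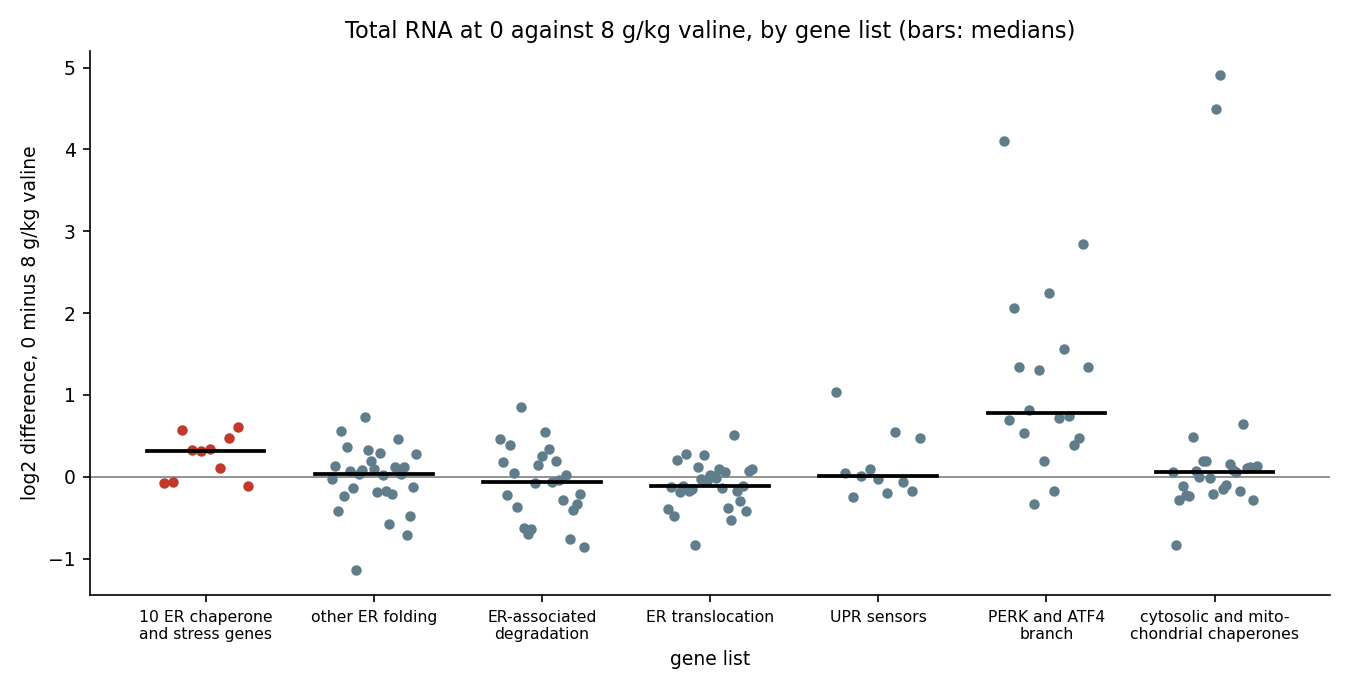
Log2 difference in total RNA between 0 and 8 g/kg valine for every tested gene of 7 lists (points) with list medians (bars). The 10 ER genes have a median of 0.32, the other ER lists and the sensors medians from -0.11 to 0.03, and the PERK and ATF4 list a median of 0.78 with Asns at 4.10.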

How the data were processed

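The values are FPKM for 12012 genes in 16 libraries as the authors deposited them. Per the submitters' processing notes cutadapt 1.18, Bowtie2 2.3.4, STAR 2.5.0c, edgeR 3.14.0 and builds mm10 and GRCm38 were used, with no role or counting rule given in the sources used here. Reads were recovered by a search, gene by gene, for a scale at which every value above 0 (149988 in all) was a whole number within 0.02. A scale was found for every gene, but the search itself sets this closeness, so it is no check of the reads. FPKM do not show how multimapping reads were treated.

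The main tests used limma 3.58.1 (R 4.3.3) on log2(FPKM + 0.5), over the 8 libraries of a fraction with diet as factor, for genes with a mean of at least 1 FPKM, two-sided, with Benjamini-Hochberg adjustment over all genes. TE was RPF minus total RNA on that scale; its mean was set against the median gene. All 10 genes passed the filter in both fractions. The recovery was tested on simulated data, where it returned the reads of 99.9% of 11827 genes exactly. The text names all 10 genes and, for each list, the 2 with the smallest p and the 2 with the highest FPKM. The members and lists were chosen with earlier results of these data known. Protein sequences were not used here.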

Additional observations from a re-analysis of the deposited data

How the results depend on the processing

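In the RPF libraries Pdia4, Pdia6, Xbp1, Herpud1 and Dnajb9 rested on 0 to 47 reads each. In both fractions a diet has 2 libraries, so the fits share the spread over all diets, and no difference between diets was called for the 10 genes in total RNA either. Alternatives were a pseudocount of 0.1, no filter, centred libraries, voom, thinned reads, a block and leaving out libraries. Over 110 values of the 10 genes, 5 turned direction with centred libraries, 21 with thinned reads, 9 with voom and none with the others. Of 520 values with 1 library or pair left out 61 turned, and the cause was not tested.

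Counts of genes called moved as follows. In total RNA at 0 g/kg voom called 3 genes and thinned reads 2, against 0, and leaving out a library gave 0 to 2. At 0.8 g/kg it gave 0 to 28, the 28 without T-ALL 2 at 0.8 g/kg. Among the 4 diets voom called 2 and leaving out a library gave 0 to 8, the 8 without the same library. With low-valine diets together it gave 0 to 1. In RPF at 0 g/kg voom called 6 and thinned reads 3, and leaving out a library gave 0 to 56, the 56 without T-ALL 3 at 0 g/kg. At 0.4 g/kg thinned reads called 1, and among the 4 diets voom called 6. For mean TE voom called 2566 genes, thinned reads 604 and left-out pairs 294 to 487, against 1041.

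Mean TE turned to -0.071 for Pdia4 and -0.15 for Calr with voom, and to -0.99 for Xbp1 with thinned reads. Leaving out a pair gave -0.15 to 0.046 for Hsp90b1, -0.21 to 0.24 for Pdia4 and -0.10 to 0.12 for Calr. Leaving out a library gave -0.080 to 0.72 for Herpud1 total RNA at 0 g/kg and -0.0025 to 0.66 for Hspa5 RPF at 0.8 g/kg.

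With the T-ALL number as a replicate block no gene was called between diets, no direction or call of the 10 genes changed, mean TE called 705 genes and Hspa5 had an adjusted p of 0.0466. T-ALL 2 minus T-ALL 3 differences of 2 diets correlated at -0.04 to 0.25 over genes in total RNA and at -0.02 to 0.07 in RPF. At so few reads such correlations cannot decide whether the numbers mark a pairing of diets. The main fits used no block for the number.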

Other observations

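Over the 8 total RNA libraries the genes whose log2 level was most like that of Hspa5 were Tysnd1 (Pearson r = 0.958), Zfp277 (0.939), Angptl2 (0.933), Cbfb (0.931), Chaf1a (0.928) and Rbm26 (0.921), among 5529 genes with a mean of at least 10 FPKM. Of the ER genes Pdia4 came nearest to Hspa5 (r = 0.784, rank 96), followed by Pdia6 (0.550, rank 534), Herpud1 (0.490, rank 681) and Hsp90b1 (0.431, rank 841). Xbp1 was at 0.180 (rank 1735), Calr (0.136) and Pdia3 (0.00679) were near 0, and Canx was at -0.188. Dnajb9, with a mean of 7.22 FPKM, was below the limit of 10 FPKM and was not ranked. These coefficients describe 8 libraries that share diets and the one library with the highest Hspa5 level, and carry no test.

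Beyond the 10 genes, 8 other tested genes had an ERSE in the same promoter window. In total RNA at 0 against 8 g/kg 5 of these 8 were higher, with a median log2 difference of 0.04, where 45.9% of all genes were higher with a median of -0.04. Of the other genes with an ERSE-II 0 of 5 were higher (median -0.16), with a UPRE core 27 of 73 (median -0.10) and with an ATF4 element core 91 of 174 (median 0.02). The 5 ER genes with a whole ERSE in this window are the chaperones Hspa5, Hsp90b1, Pdia6, Calr and Canx. Of these Pdia6 had the largest difference at 0 g/kg, and Canx and Calr lay at -0.06 and -0.08.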
